A study of Mus musculus with 24 samples.

Results

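Endoplasmic reticulum and integrated stress genes were described across mouse livers by 10 members: the chaperones and folding enzymes Hspa5, Hsp90b1, Pdia4, Sdf2l1 and Dnajb9, the degradation factor Herpud1, and the transcription factors and signalling genes Xbp1, Atf4, Ddit3 and Trib3. The members were taken by name, and all 10 were among the 21755 genes of the p16-3MR count table. In the WT table, whose gene labels lack 9 lower-case letters, 8 of the 10 could be read among 12643 labels. The labels of Xbp1 and Trib3 are each shared with another gene (Xpo1 and Trim3), so neither was analysed in WT livers.

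Liver RNA of 24 mice was sequenced, with 3 mice in each group of sex and treatment. The p16-3MR mice carry a transgene, driven by the p16 promoter, that holds the viral thymidine kinase which turns ganciclovir (GCV) into a toxic product in p16+ cells. They received GCV or vehicle (VEH, pH11 water) by intraperitoneal injection on 5 days of each month, from an age of 16 to 18 months. The WT mice lack the transgene, are called age-matched in the labels but received the same agents from 6 months of age for 3 months, and serve as the control for effects of GCV itself. GCV was dosed at 150 mg/kg by the labels, while the methods of the study state another dose. The p16-3MR livers are GCV females 31, 33 and 35, VEH females 27, 28 and 29, GCV males 30, 32 and 34, and VEH males 24, 25 and 26, all of batch 1. The WT livers are females 4, 5 and 6 and males 1, 2 and 3 of each treatment, all of batch 2. Genotype, age and batch cannot be told apart, so each table was fitted on its own, and nothing was tested across them.

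Proteins that enter the secretory pathway fold in the endoplasmic reticulum (ER), and hepatocytes, which secrete most plasma proteins, carry a large one. When unfolded proteins accumulate there, sensors in the ER membrane start the unfolded protein response. IRE1 splices the Xbp1 transcript and ATF6 is cut into a transcription factor, and both routes raise ER chaperones and ER-associated degradation. PERK phosphorylates the translation factor eIF2, which lowers protein synthesis as a whole but favours translation of Atf4. This last branch is shared with other kinases and is called the integrated stress response, with Ddit3 (CHOP) and Trib3 among its downstream genes. Xbp1 splicing, Atf4 translation and the cutting of ATF6 are not seen in a count of reads per gene.

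Promoter windows (RefSeq, GRCm38.p6, from 250 bases before to 50 after the start of transcription) were found for all 10 members, and they are shown because several members of the chaperone group varied together across livers. The letters searched on both strands were the ER stress response element ERSE (CCAAT and CCACG with 9 bases of any kind between them), ERSE-II (ATTGG and CCACG with 1 base of any kind between them), the core of the unfolded protein response element (TGACGTGG) and an amino acid response element (TTGCATCA). The first 3 share CCACG or its complement, so they can overlap. Matches were found in 3 of the 10 windows. The windows are printed 5′ to 3′ on the gene's strand, with the matches in capitals, and Sdf2l1 is added as a window with no match.
Hspa5 (chr2:34771840-34772139, plus strand): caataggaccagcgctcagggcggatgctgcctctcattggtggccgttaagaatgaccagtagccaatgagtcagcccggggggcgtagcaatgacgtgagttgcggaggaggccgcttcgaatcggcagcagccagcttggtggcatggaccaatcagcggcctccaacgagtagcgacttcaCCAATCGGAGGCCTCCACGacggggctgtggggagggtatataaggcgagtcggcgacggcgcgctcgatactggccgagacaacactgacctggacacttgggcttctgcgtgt
Hsp90b1 (chr10:86705395-86705694, minus strand): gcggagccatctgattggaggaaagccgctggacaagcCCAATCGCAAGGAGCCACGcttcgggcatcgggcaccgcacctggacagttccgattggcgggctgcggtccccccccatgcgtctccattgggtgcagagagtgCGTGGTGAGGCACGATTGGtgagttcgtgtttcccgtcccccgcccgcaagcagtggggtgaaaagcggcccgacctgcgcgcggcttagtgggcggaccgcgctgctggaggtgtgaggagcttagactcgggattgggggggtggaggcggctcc
Herpud1 (chr8:94386179-94386478, plus strand): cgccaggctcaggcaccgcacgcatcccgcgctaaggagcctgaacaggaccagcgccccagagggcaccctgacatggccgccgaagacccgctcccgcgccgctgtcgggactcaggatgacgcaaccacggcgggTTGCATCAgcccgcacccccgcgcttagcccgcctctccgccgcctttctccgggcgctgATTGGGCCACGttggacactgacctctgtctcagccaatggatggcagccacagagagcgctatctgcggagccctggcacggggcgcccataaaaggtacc
Sdf2l1 (chr16:17132334-17132633, minus strand): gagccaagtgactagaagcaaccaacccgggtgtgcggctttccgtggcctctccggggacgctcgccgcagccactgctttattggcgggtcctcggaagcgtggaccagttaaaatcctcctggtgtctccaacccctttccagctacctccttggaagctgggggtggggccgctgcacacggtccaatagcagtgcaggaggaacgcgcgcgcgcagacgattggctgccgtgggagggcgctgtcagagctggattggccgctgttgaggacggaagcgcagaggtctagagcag
Hspa5 held 1 ERSE, from 65 to 47 bases before the start. Hsp90b1 held 2, from 212 to 194 bases and, on the other strand, from 107 to 89 bases before it. Herpud1 held an ERSE-II from 52 to 42 bases and an amino acid response element from 112 to 105 bases before the start. Of 32851 windows of the same length, 0.119% held an ERSE, 0.0365% an ERSE-II, 0.676% the core and 0.895% the amino acid response element. A match describes the letters of a window, not a bound site, and the absence of a match says only that these letters are not in it.

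Library totals were 5005760 to 7160172 counts in p16-3MR livers and 3084517 to 5667904 in WT livers, with levels given as CPM, counts scaled to the same library total, after TMM scaling, which corrects that total from the bulk of the genes. On this scale a floor of 3 counts corresponded to 0.516 to 0.943 CPM in WT livers, to 2.32 CPM in p16-3MR liver 33 and to 0.293 to 0.578 CPM in the other 11. One p16-3MR library, GCV female 33, stood apart, with 64.0% of its counts on mitochondrially encoded genes, 73.7% on its 10 largest genes and a TMM factor of 0.259, against 12.3 to 22.4%, 20.9 to 31.3% and 0.850 to 1.80 in the other 11. GCV male 32 and VEH male 24 had the highest TMM factors, 1.80 and 1.64 against 0.850 to 1.19 in the other 9, and the most genes detected, 18659 and 18645. Without these 3 livers together, 0 of 10 members were called in any p16-3MR comparison by edgeR. The biological coefficient of variation, from 1 common dispersion over all genes of a table, was 55.8% in p16-3MR livers, liver 33 included, and 16.6% in WT livers. The gene sets of the tables differ and no value was computed without liver 33, so these values are not like for like. Hepatocyte markers were abundant. In p16-3MR livers, 10 of 10 listed markers summed to 24566 to 156589 CPM, with 24566 to 83202 CPM within GCV males alone. In WT livers 3 of 10 were readable, summing to 13629 CPM or more. In bulk tissue, a lower level in each cell and fewer cells of a type cannot be told apart. Positions below are those of GENCODE vM21 on GRCm38.

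Among the chaperones in p16-3MR livers, Hspa5 (BiP, the main ER chaperone and brake on the stress sensors, chromosome 2, 34771970 to 34777547) was at 1555, 531 and 1087 CPM in GCV females 31, 33 and 35, and at 822, 806 and 524 CPM in VEH females. The groups overlapped through liver 33, which lay below VEH females 27 and 28, and the log2 fold change of 0.56 ± 0.56 (SE) had an adjusted p of 0.795 (edgeR, n = 3). It was 0.17 without liver 31 and 0.82 without liver 33. Hsp90b1 (GRP94, which folds secreted and surface proteins, chromosome 10, 86690209 to 86705509) was at 2014, 794 and 1713 CPM with GCV and 1479, 1444 and 1144 CPM with VEH. The GCV range enclosed the VEH range, again because liver 33 was lowest. Part of Hsp90b1 lies over 1810014B01Rik on the other strand and Gm15344 on its own. Reads there were assigned by the authors' abundance estimate (Salmon), and whether it used strand was not given in the sources used here.

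Pdia4, a protein disulfide isomerase (chromosome 6, 47796141 to 47813430), was at 195, 57.2 and 172 CPM in GCV females and 231, 224 and 166 CPM in VEH females. Sdf2l1, a partner of Hspa5 in folding (chromosome 16, 17130138 to 17132383), was at 24.9, 5.41 and 12.7 CPM with GCV and 16.4, 20.1 and 13.0 CPM with VEH, of which the 5.41 CPM of liver 33 rests on 7 counts. Dnajb9 (ERdj4, a co-chaperone that also helps Hspa5 to hold IRE1 inactive, chromosome 12, 44205559 to 44210326) was at 102.0, 14.7 and 91.7 CPM with GCV and 45.8, 41.5 and 43.5 CPM with VEH. Liver 33 was the lowest of the 3 GCV females for all 5 chaperone genes, and for Dnajb9 the other GCV females lay above every VEH female. The Dnajb9 difference was 0.68 in log2 and 0.31 without liver 31. Without liver 33 it was 1.09 ± 0.43, with an adjusted p of 0.842 by edgeR. Pdia4 differed by -0.55 in log2, with -0.85 without liver 31 and -0.24 without liver 33.

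The degradation and integrated stress genes ordered differently in these females. Herpud1, an ER membrane protein that recruits the degradation machinery (chromosome 8, 94386438 to 94395377), was at 130.3, 212 and 180.1 CPM in GCV females and at 82.0, 75.7 and 78.2 CPM in VEH females. Ddit3, the stress transcription factor CHOP (chromosome 10, 127290774 to 127296288), was at 20.8, 12.4 and 8.89 CPM with GCV and 5.09, 4.20 and 4.15 CPM with VEH. Atf4, the transcription factor of the integrated stress response (chromosome 15, 80255184 to 80257541), was at 96.2, 275.0 and 43.6 CPM with GCV and 38.3, 35 and 38.5 CPM with VEH. In these 3 genes every GCV female lay above every VEH female. Xbp1 (chromosome 11, 5520659 to 5525893) did so by a narrow margin, with 175.8, 115.1 and 118 CPM against 109, 115.0 and 105 CPM. Trib3, a pseudokinase induced by ATF4 and CHOP (chromosome 2, 152337422 to 152344032), was near the limit of detection, at 0.964, 5.41 and 0.335 CPM with GCV and 1.47, 1.30 and 0.881 CPM with VEH, values that rest on 2 to 11 counts. Liver 33 was highest of the GCV females for Herpud1, Atf4 and Trib3. The end of Ddit3 lies over the end of Mars on the other strand, and a second annotated entry for Ddit3 lies within the first and was not in the table.

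**Figure D1:**
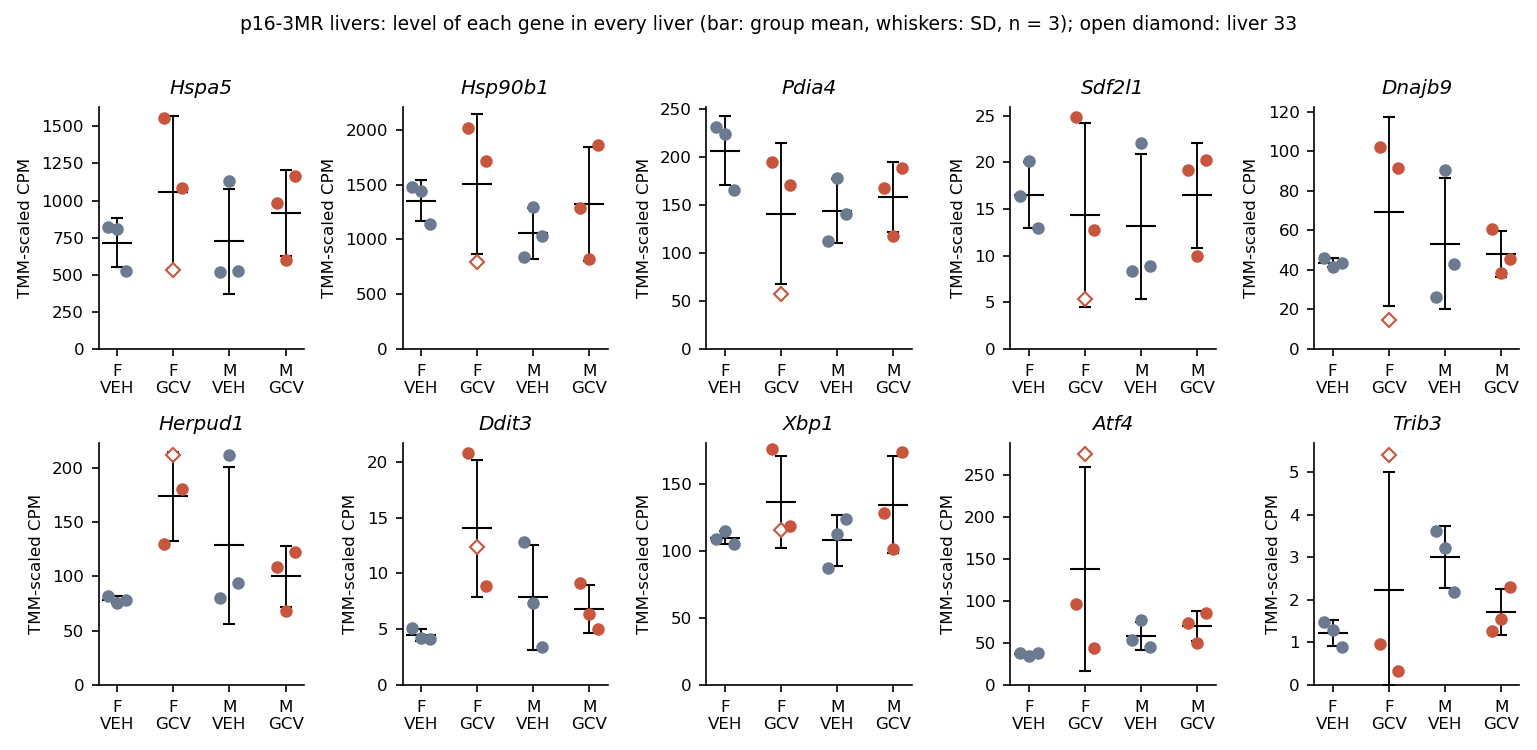
Level of each of the 10 genes in every p16-3MR liver, as TMM-scaled CPM on a linear axis from 0, by sex (F, M) and treatment (VEH grey, GCV red). Bars are group means and whiskers SD (n = 3). The open diamond is liver 33, which is lowest of its group in the 5 chaperone panels and highest for Herpud1, Atf4 and Trib3.

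By the test across all genes, 0 of the 10 members were called between GCV and VEH females (edgeR, adjusted p under 0.05), where 0.0% of all genes were called. DESeq2 and limma-voom also called 0 of the 10, of 90 and 7 genes called in all (0.414% and 0.0322%). At an unadjusted p under 0.05, edgeR gave 3 of the 10, all higher with GCV, against 5.05% of all genes higher. These were Atf4, with a log2 fold change of 1.88 ± 0.54 and an adjusted p of 0.646, Ddit3, with 1.65 ± 0.50 and an adjusted p of 0.646, and Herpud1, with 1.14 ± 0.43 and an adjusted p of 0.653 (edgeR). The groups did not overlap in 4 of the 10, all higher with GCV, against 5.91% of all genes and 10.2% of genes with a mean of at least 50 counts. The median log2 fold change was 0.55 over the members and 0.00 over all genes.

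Liver 33 moved the size for Atf4 and not for Ddit3. Without it the Atf4 difference was 0.84 ± 0.38, the Herpud1 difference 0.92 ± 0.43 and the Ddit3 difference 1.66 ± 0.53, each with an adjusted p of 0.842 by edgeR. Without liver 33, Trib3 turned from 0.55 ± 0.85 to -0.97 ± 0.66, and Sdf2l1 from -0.15 ± 0.52 to 0.13 ± 0.48, neither called. Sdf2l1 was at -0.79 without liver 31, where Xbp1 fell from 0.31 to 0.09. Ddit3 ran from 1.22 without liver 31, which held its highest level, to 1.91 without liver 35. Summed markers of stellate cells, with 6 of 6 markers in the table, were lower in GCV females (239 to 332 CPM) than in VEH females (333 to 401 CPM). Those of Kupffer cells (8 of 8) spanned 153 to 477 against 416 to 1171 CPM. The part of these cells in the members' values was not tested.

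In p16-3MR males, the same 10 genes showed no separation by treatment. 0 of 10 were called by edgeR, DESeq2 or limma-voom (0.0%, 0.0230% and 0.667% of all genes), 0 of 10 had an unadjusted p under 0.05 (1.91% of all genes), and the groups overlapped in all 10 (6.40% of all genes did not). Hspa5 was at 981, 599 and 1164 CPM in GCV males 30, 32 and 34 and at 516, 1130 and 528 CPM in VEH males 24, 25 and 26. Herpud1 was at 108.8, 68.6 and 122.7 CPM with GCV and 80.4, 212 and 93.9 CPM with VEH. VEH male 25 was the highest of its group for Hspa5, Hsp90b1, Pdia4, Sdf2l1, Dnajb9, Herpud1 and Atf4, and lay above every GCV male for Sdf2l1, Dnajb9 and Herpud1. The log2 fold changes of the chaperones were 0.34 ± 0.56 for Hspa5, 0.33 for Hsp90b1, 0.14 for Pdia4, 0.32 for Sdf2l1 and -0.15 for Dnajb9. Those of the other genes were -0.36 for Herpud1, -0.21 for Ddit3, 0.32 for Xbp1, 0.25 for Atf4 and -0.82 ± 0.76 for Trib3. Some directions rested on 1 liver: without VEH male 25, Herpud1 was at 0.20 and Dnajb9 at 0.47. Ddit3 was at 0.38 without VEH male 24, and Pdia4 at -0.01 without GCV male 34. Cholangiocyte markers (5 of 5 in the table) summed to 85.9 to 143 CPM in GCV males and 50.3 to 64.1 CPM in VEH males, and the part of these cells was not tested.

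The difference between the female and the male response was tested as an interaction, and 0 of 10 members were called by edgeR, DESeq2 or limma-voom (0.0%, 0.0138% and 0.0046% of all genes). At an unadjusted p under 0.05, 3 of 10 had a higher response in females, against 1.91% of all genes. These were Ddit3 (1.85 ± 0.69), Atf4 (1.63 ± 0.75) and Herpud1 (1.51 ± 0.60), each with an adjusted p of 0.976 by edgeR. Single livers moved these values: Atf4 was 0.60 ± 0.51 without liver 33, Herpud1 0.95 without VEH male 25 and Ddit3 1.21 without VEH male 24. The widest 95% interval of these 3, for Atf4, ran from 0.16 to 3.09. The difference was 0.22 for Hspa5, -0.18 for Hsp90b1, -0.68 for Pdia4, -0.48 for Sdf2l1, 0.83 for Dnajb9 and 1.36 for Trib3, each with a 95% interval that held 0. Single livers moved these too, with Trib3 at -0.13 without liver 33 and Hsp90b1 at 0.15 without GCV male 34. Without VEH male 25, Hspa5 was at -0.25 and Dnajb9 at 0.21. For Xbp1 the difference in response was -0.00 with an interval from -0.97 to 0.97, so responses that differ by nearly 2-fold in either direction lie within it.

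In WT females the chaperone group did not lie on 1 side: Hsp90b1, Pdia4 and Sdf2l1 had higher means with GCV, Dnajb9 and the degradation factor Herpud1 lower ones, and Hspa5 differed little. Hsp90b1 was at 1280, 1348 and 1378 CPM in GCV females 4, 5 and 6 and at 1208, 919 and 971 CPM in VEH females 4, 5 and 6. Pdia4 was at 140.1, 177 and 159 CPM with GCV and 137, 108 and 104 CPM with VEH. In both genes every GCV female lay above every VEH female, and VEH female 4 was the nearest. Sdf2l1 was at 34.1, 21.9 and 30.6 CPM with GCV and 25.3, 15.9 and 12 CPM with VEH, and the groups overlapped. In the other direction, Dnajb9 was at 20.1, 18.4 and 16.2 CPM with GCV and 46.1, 23.0 and 33.6 CPM with VEH. Herpud1 was at 232, 241 and 201 CPM with GCV and 368, 258 and 336 CPM with VEH. For both, every GCV female lay below every VEH female, as for Ddit3, with 6.55, 7.48 and 7.66 CPM against 9.11, 9.07 and 7.76 CPM. Hspa5 was at 574, 619 and 668 CPM with GCV, inside the range of VEH females, which were at 941.5, 407 and 613 CPM. Atf4, at 71.2, 64.7 and 75.1 CPM with GCV and 98.7, 57.7 and 90.5 CPM with VEH, also overlapped.

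**Figure D2:**
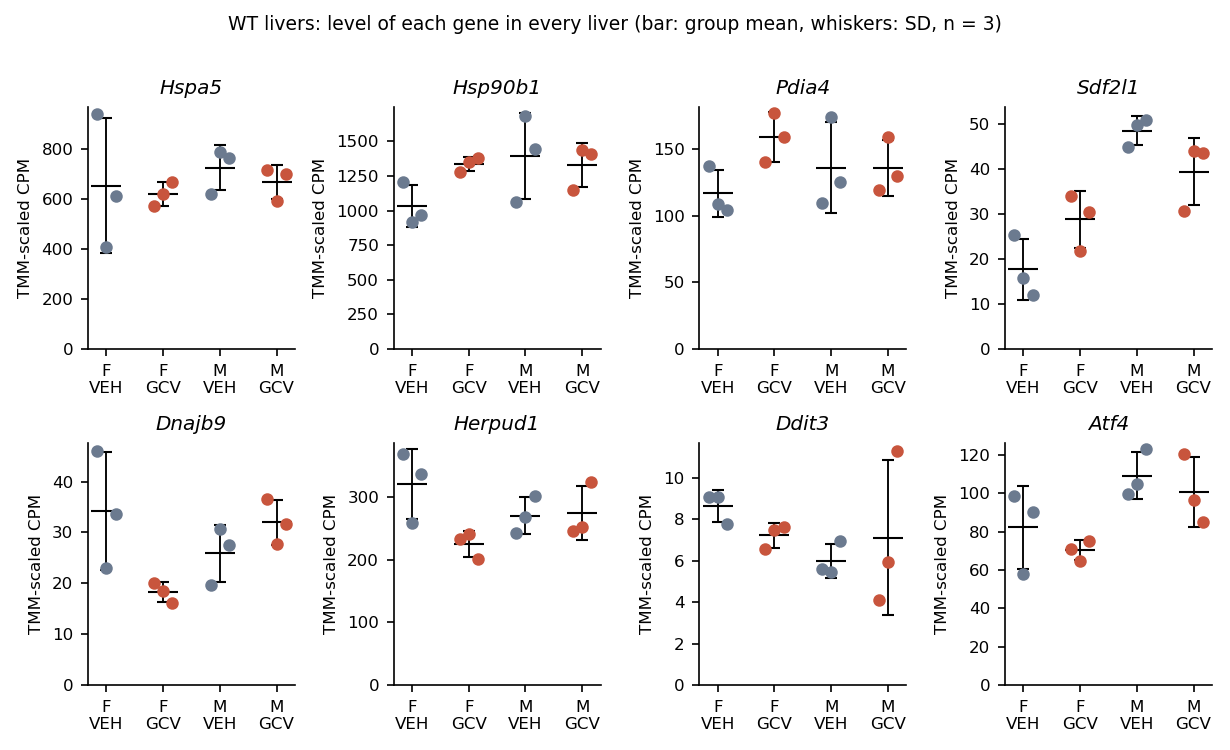
Level of each of the 8 readable genes in every WT liver, as TMM-scaled CPM on a linear axis from 0, by sex (F, M) and treatment (VEH grey, GCV red). Bars are group means and whiskers SD (n = 3). In females, Dnajb9, Herpud1 and Ddit3 lie lower with GCV without overlap, and Hsp90b1 and Pdia4 higher.

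None of these differences passed the test across all genes: 0 of 8 members were called by edgeR, DESeq2 or limma-voom, where 0.00791%, 0.134% and 0.0237% of all genes were called. At an unadjusted p under 0.05, edgeR gave 3 of 8 higher and 2 of 8 lower with GCV, against 2.25% and 2.32% of all genes. Higher with GCV were Sdf2l1 (0.69 ± 0.22, adjusted p 0.826), Pdia4 (0.44 ± 0.16) and Hsp90b1 (0.37 ± 0.14), the latter pair with an adjusted p of 1.0 by edgeR. Lower with GCV were Dnajb9 (-0.92 ± 0.22, a 1.89-fold lower level, unadjusted p 0.000427 and adjusted p 0.318) and Herpud1 (-0.51 ± 0.14, adjusted p 0.402 by edgeR). Groups did not overlap in 2 of 8 members higher with GCV and in 3 of 8 lower, against 5.05% and 4.95% of all genes and 6.48% and 5.75% of those with a mean of at least 50 counts. The median log2 fold change was -0.15 over the 8 genes and 0.00 over all genes. Dnajb9 was called when VEH female 5 was left out (-1.14, adjusted p 0.0249 by edgeR), and was at -0.63 with an adjusted p of 0.873 without VEH female 4, where Sdf2l1 was at 1.05. In a fit of the 6 female livers alone, Dnajb9 and Herpud1 were both called (adjusted p 0.0268 each by edgeR). With the replicate number as a block, 5 of 8 members were called, though the numbers were not taken as pairs, as described below. Summed markers of erythroid cells (4 of 5 readable) spanned 1269.6 to 1877.5 CPM in GCV and 768 to 1361 CPM in VEH females, and their part was not tested.

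In WT males, 0 of 8 were called by edgeR, DESeq2 or limma-voom (0.0%, 0.00791% and 0.0% of all genes), and 0 of 8 had an unadjusted p under 0.05 by edgeR, against 5.06% of all genes. Only Sdf2l1 had groups that did not overlap, with 30.8, 44.1 and 43.6 CPM in GCV males 1, 2 and 3 and 45.0, 49.8 and 51.1 CPM in VEH males, while 4.37% of all genes were lower with GCV without overlap. Its log2 fold change was -0.29 ± 0.21, with an adjusted p of 0.889 by edgeR. Dnajb9 was at 36.5, 27.7 and 31.7 CPM with GCV and 19.7, 30.6 and 27.5 CPM with VEH. Herpud1 was at 246, 252 and 324 CPM with GCV and 242, 267 and 301 CPM with VEH. Both ranges overlapped, and the log2 fold changes were -0.12 for Hspa5, -0.07 for Hsp90b1, 0.00 for Pdia4, 0.22 for Ddit3 and -0.12 for Atf4. Without overlap, hepatocyte markers (3 of 10 readable) summed to 17423 to 18016 CPM with GCV and 18358 to 19251 CPM with VEH, and erythroid markers (4 of 5) to 1659.7 to 3766 CPM and 1494 to 1622 CPM. Their part was not tested.

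As an interaction, the WT response differed between females and males in 0 of 8 members by edgeR, DESeq2 or limma-voom (0.00791% of all genes in each). At an unadjusted p under 0.05, edgeR gave 2 of 8 higher and 2 of 8 lower in females, against 1.95% and 2.50% of all genes. Dnajb9 had the lower response in females (-1.21 ± 0.31, adjusted p 0.697), and Herpud1 gave -0.53 ± 0.19 (adjusted p 0.982 by edgeR). Sdf2l1 (0.99 ± 0.31) and Hsp90b1 (0.44 ± 0.19) had the higher response in females, each with an adjusted p of 0.982 by edgeR. Dnajb9 and Sdf2l1 were called only with the replicate number as a block. Herpud1 in females was thus 1.14 higher with GCV in p16-3MR and 0.51 lower (-0.51) in WT livers, values from separate fits that were not tested against each other.

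**Figure D3:**
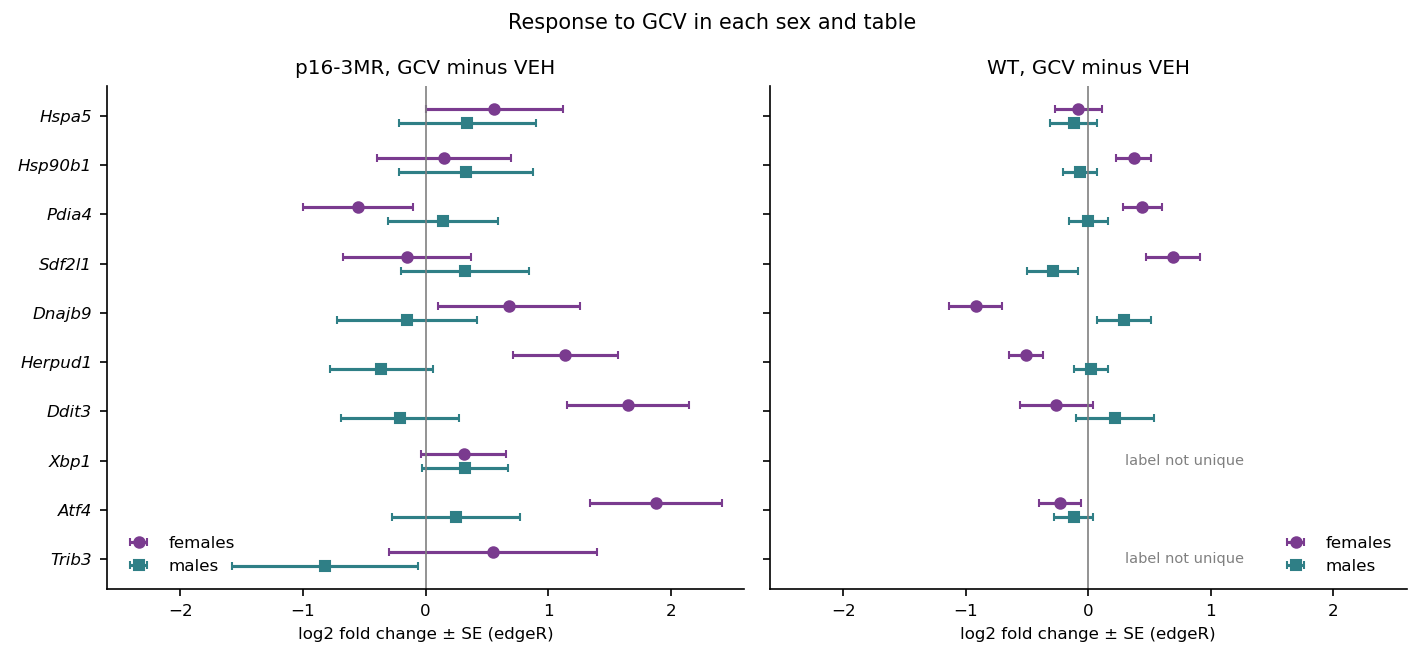
Log2 fold change of each gene, GCV minus VEH, with its SE from edgeR, for females (circles) and males (squares) in p16-3MR livers (left) and WT livers (right). No point passed an adjusted p of 0.05. In females, Atf4, Ddit3 and Herpud1 lie highest in p16-3MR livers, and Dnajb9 and Herpud1 lowest in WT livers. Xbp1 and Trib3 have no unique label in the WT table.

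Between the sexes, 2 of the 8 members were called in WT livers, over both treatments. The ranges of the sexes overlapped in all 8, while 4.77% of all genes did not overlap. Sdf2l1 was lower in females, with a lowest, median and highest level of 12, 23.6 and 34.1 CPM in 6 females and 30.8, 44.5 and 51.1 CPM in 6 males. The log2 fold change was -0.94 ± 0.15, a 1.92-fold lower level, with an adjusted p of 0.000222 by edgeR. The sexes overlapped only through GCV-treated livers. Values in VEH livers alone, here and below, compare the VEH groups within the fit of all 12 livers. Their SE and p thus also rest on the spread of GCV livers. VEH females were at 12 to 25.3 CPM and VEH males at 45.0 to 51.1 CPM, a difference of -1.43 ± 0.22 (adjusted p 0.000172 by edgeR). Atf4 was lower in females as well, with 57.7, 73.2 and 98.7 CPM in females and 84.8, 102.5 and 123.0 CPM in males. Its log2 fold change was -0.46 ± 0.12, with an adjusted p of 0.0149 by edgeR. That call ended without GCV male 1 (-0.39, adjusted p 0.0522) and in VEH livers alone (-0.41 ± 0.16, adjusted p 0.216 by edgeR). Both calls were toward lower levels in females, where 4.05% of all genes were called. DESeq2 and limma-voom called the same 2 members, with 4.60% and 4.64% of all genes called lower.

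The other 6 were not called between the sexes. Hsp90b1 differed by -0.22 ± 0.10 in log2 (adjusted p 0.214 by edgeR) and was called when VEH male 1 was left out (-0.30, adjusted p 0.0153). It was also called with the replicate number as a block (-0.20, adjusted p 0.0248 by edgeR). Hspa5 was at 407, 616 and 941.5 CPM in females and 593, 708 and 790.4 CPM in males, a difference of -0.13 with a 95% interval from -0.39 to 0.13. Herpud1 (-0.02, interval -0.21 to 0.17) and Pdia4 (-0.00, interval -0.21 to 0.21) had intervals centred near 0. Ddit3 was at 0.28 and Dnajb9 at -0.20. In VEH livers alone, again with none of the 6 called, Ddit3 was at 0.52 ± 0.30, Dnajb9 at 0.40 ± 0.21 and Herpud1 at 0.25 ± 0.14. Lower in females there were Hsp90b1 with -0.44 ± 0.14, Pdia4 with -0.22 ± 0.16 and Hspa5 with -0.15 ± 0.19. Hepatocyte markers, 3 of 10 readable, summed to 13629 to 15295 CPM in females and 17423 to 19251 CPM in males. Only 1 of these 3 genes had an unadjusted p under 0.05 by edgeR, and their median log2 fold change was -0.13. T cell and NK cell markers, 2 of 5 readable, summed to 2.21 to 5.88 CPM in females and 0.580 to 1.57 CPM in males. The libraries of the sexes also lay apart, with TMM factors of 1.11 to 1.14 in females and 0.835 to 0.975 in males, 18.6 to 19.5% against 23.2 to 29.5% of counts on the 10 largest genes, and 4.57 to 5.08% against 3.62 to 4.50% on mitochondrial genes. The part of any of these in the sex difference was not tested.

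Other genes of the pathway were read from 4 lists that leave out the members: ER chaperones and folding enzymes, ER-associated degradation and translocation, stress sensors and their signalling, and targets of ATF4 and CHOP. Between WT females and males, 9 of the 53 readable genes were called, all lower in females, and the median over the 53 was -0.19 in log2, against 0.03 over all genes. Of all genes, 4.05% were called lower in females and 3.89% higher. By list, 4 of 15 chaperones and folding enzymes, 3 of 10 degradation and translocation genes, 1 of 10 sensors and 1 of 18 targets were called, of which the count of targets is near the share of all genes. The chaperone group held Erp29 (-0.48 ± 0.08, adjusted p 0.000176), the disulfide isomerase Pdia6 (-0.42 ± 0.09, adjusted p 0.00345) and the co-chaperones Dnajc3 (-0.40 ± 0.09) and Dnajb11 (-0.46 ± 0.12). Derl3, a channel component of ER-associated degradation, was at 1.05 ± 0.511 CPM (SD, n = 6) in females and 4.93 ± 3.55 CPM in males. Its log2 fold change was -2.20 ± 0.46, with an adjusted p of 0.00306 by edgeR. The female level of Derl3 lies near the floor of 0.516 to 0.943 CPM, so the size is not exact. It ran from -1.80 without GCV male 3 to -3.05 in VEH livers alone. The translocation factor Sec63 (-0.34 ± 0.09), the extraction cofactor Nploc4 (-0.35 ± 0.10), the eIF2 phosphatase subunit Ppp1r15b (-0.34 ± 0.10) and the alanine tRNA ligase Aars (-0.35 ± 0.08) completed the 9. Erp29, Pdia6, Dnajc3, Derl3 and Aars kept the call without any 1 liver. The call of Dnajb11 ended without GCV female 4 (-0.44) or VEH male 2 (-0.42), and that of Sec63 without VEH male 3 (-0.30). Those of Ppp1r15b and Nploc4 ended without any of 6 and 8 livers, with adjusted p up to 0.0802 and 0.125 by edgeR. With 1 liver left out, Ppp1r15b ran from -0.38 to -0.29 and Nploc4 from -0.43 to -0.31. In VEH livers alone, Sec63 (-0.34), Nploc4 (-0.32) and Ppp1r15b (-0.46) were not called (adjusted p 0.151, 0.290 and 0.0672 by edgeR), and the other 6 were. The uncalled values lay close to or beyond those over both treatments. Without VEH male 1 the count was 15.

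**Figure D4:**
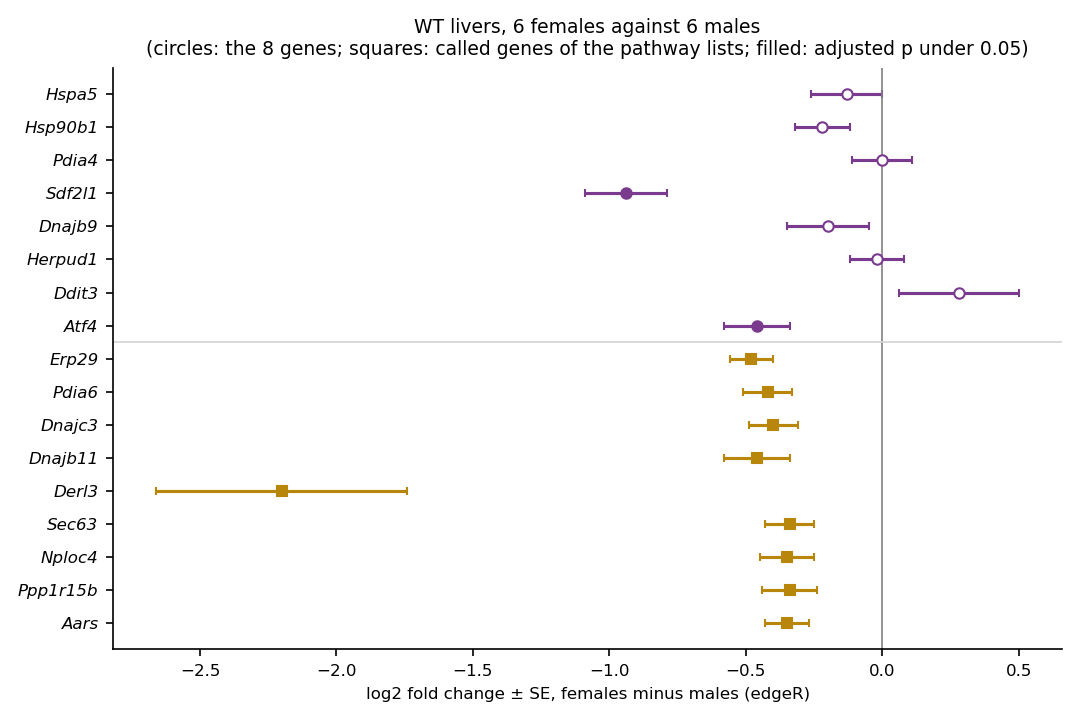
Log2 fold change between females and males in WT livers with its SE from edgeR, over both treatments (6 livers a sex). Circles are the 8 members and squares the 9 called genes of the pathway lists, and filled symbols have an adjusted p under 0.05. All 11 filled symbols lie below 0, from -2.20 for Derl3, which is near the floor in females, to -0.34.

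In p16-3MR livers, 0 of 10 members were called between the sexes by edgeR, DESeq2 or limma-voom (0.303%, 0.901% and 0.988% of all genes), 0 had an unadjusted p under 0.05 by edgeR (7.05% of all genes), and every range overlapped (0.616% of all genes did not). Sdf2l1, called in WT livers, was at 5.41, 14.7 and 24.9 CPM in females and 8.40, 14.6 and 22.1 CPM in males, a difference of 0.09 with a 95% interval from -0.63 to 0.81. Atf4 was at 35, 41.1 and 275.0 CPM in females and 45.3, 63.3 and 86.1 CPM in males, a difference of 0.16 ± 0.37 that was -0.33 ± 0.26 without liver 33. In VEH livers alone the values, none called, were -0.65 ± 0.53 for Atf4, -0.71 ± 0.42 for Herpud1, -0.82 ± 0.49 for Ddit3 and -1.29 ± 0.77 for Trib3, against 0.16, 0.04, 0.11 and -0.61 over both treatments. On the other side were Pdia4 with 0.52 ± 0.45, Hsp90b1 with 0.36 ± 0.55 and Sdf2l1 with 0.33 ± 0.52, against 0.18, 0.27 and 0.09, while Dnajb9 was at -0.29, Hspa5 at -0.01 and Xbp1 at 0.03. Of the 91 pathway genes, 0 were called by edgeR between the sexes, where 1 had an unadjusted p under 0.05 in each direction, against 2.61% of all genes higher and 4.44% lower in females.

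Between GCV and VEH in p16-3MR females, edgeR called 0 of the 91 pathway genes, and DESeq2 called 1, where it called 0.414% of all genes. At an unadjusted p under 0.05, edgeR gave 9 higher and 1 lower with GCV, where 5.05% and 2.32% of all genes were higher and lower. The gene with the lowest p of each list was Cebpb (1.27 ± 0.42), Sdf2 (0.76 ± 0.26), Syvn1, the ubiquitin ligase of ER-associated degradation (1.36 ± 0.50), and Eif2ak3, which encodes PERK (0.90 ± 0.40). Their adjusted p ran from 0.646 to 0.667 by edgeR. The median over the 91 genes was -0.00. In p16-3MR males 0 of 91 were called by edgeR, with 1 in each direction at an unadjusted p under 0.05 (1.1% of all genes higher and 0.814% lower). The higher gene was again Cebpb (1.04 ± 0.42), and the lower gene was Ern1 (-0.99 ± 0.34), which encodes IRE1. In WT females 0 of 53 were called by edgeR, with 2 higher and 2 lower at an unadjusted p under 0.05 (2.25% and 2.32% of all genes). In WT males 0 of 53 were called by edgeR, with 0 higher and 2 lower at that p (2.65% and 2.41% of all genes). These counts in males of both tables and in WT females are near the shares of all genes.

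Across the 4 groups, the members' order of mean levels was rarely separated by more than the spread. Within p16-3MR livers, GCV females had the highest mean for Hspa5, Hsp90b1, Dnajb9, Herpud1, Ddit3, Xbp1 and Atf4, and neighbouring groups in the order overlapped for every gene, except that VEH males lay above VEH females for Atf4. In WT livers, neighbours without overlap were VEH above GCV males for Sdf2l1, VEH above GCV females for Ddit3, and VEH males above GCV females for Herpud1. The highest level was 16.1 times the lowest for Trib3 and 7.86 times for Atf4 across p16-3MR livers, and 2.02 times for Xbp1. Liver 33, which stood apart, held the highest level of both Trib3 and Atf4. The lowest Trib3 level rests on 2 counts, under the floor of 3, so its ratio is not exact. Across WT livers the ratio ran from 1.70 for Pdia4 to 4.26 for Sdf2l1.

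How the members varied together within groups was measured by correlating, over the 12 livers of a table, the deviation of Hspa5 from its group mean in log2 CPM with that of each other member. In p16-3MR livers, Pearson's r was 0.92 for Hsp90b1, 0.91 for Pdia4 and 0.98 for Sdf2l1, and Spearman's rho 0.94, 0.91 and 0.92. Adjusted over 16 pairs, the two-sided permutation p was 0.00632, 0.00632 and 0.0109 for r, and the same for rho. Livers were exchanged within groups, which gives 1296 arrangements and a smallest possible p of 0.000772. By the deviation of Hspa5 from its group mean, livers 33 and 32 lay farthest from the median, and without them r was 0.87, 0.87 and 0.96. Among 8090 genes with a mean of at least 50 counts, the median r with Hspa5 was 0.25, and 0.247%, 0.383% and 0.0124% of the others had an r at least as high as Hsp90b1, Pdia4 and Sdf2l1. Dnajb9 had an r of 0.83 and a rho of 0.76, with adjusted permutation p of 0.0736 and 0.0976, and r was 0.75 without these livers, with 2.77% of the other genes at least as high. Xbp1 had an r of 0.67 and a rho of 0.78, with adjusted permutation p of 0.161 and 0.0884, and r was 0.53 without these livers, with 20.9% of the other genes at least as high.

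The degradation factor Herpud1 and the stress genes Ddit3, Atf4 and Trib3 did not pass in this measure. In p16-3MR livers r with Hspa5 was 0.39 for Herpud1, 0.18 for Ddit3, -0.19 for Atf4 and -0.38 for Trib3, with adjusted permutation p from 0.522 to 0.807, and with 1 liver left out r ranged from -0.41 to 0.76 for Atf4, from -0.06 to 0.76 for Herpud1, from -0.49 to 0.52 for Trib3 and from -0.08 to 0.48 for Ddit3. In WT livers none of 7 pairs passed. The highest r was 0.87 for Dnajb9 (rho 0.76, adjusted permutation p 0.0826 and 0.105), followed by 0.76 for Atf4 and 0.66 for Herpud1, with 0.293%, 1.88% and 4.90% of the other genes at least as high (4101 genes, median r 0.06). VEH females 4 and 5 lay farthest from the median, and without them these values were 0.65, 0.35 and 0.26. For Sdf2l1, r was 0.98 in p16-3MR and 0.40 in WT livers. With 1 liver left out it ranged from 0.96 to 0.99 in p16-3MR and from -0.40 to 0.51 in WT livers. The difference between the tables was not tested. All values of a liver share its library size and TMM factor. Cell markers also spread within groups, as in p16-3MR GCV males for hepatocytes (24566 to 83202 CPM) and Kupffer cells (289 to 4974 CPM). Their part in these correlations was not tested.

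**Figure D5:**
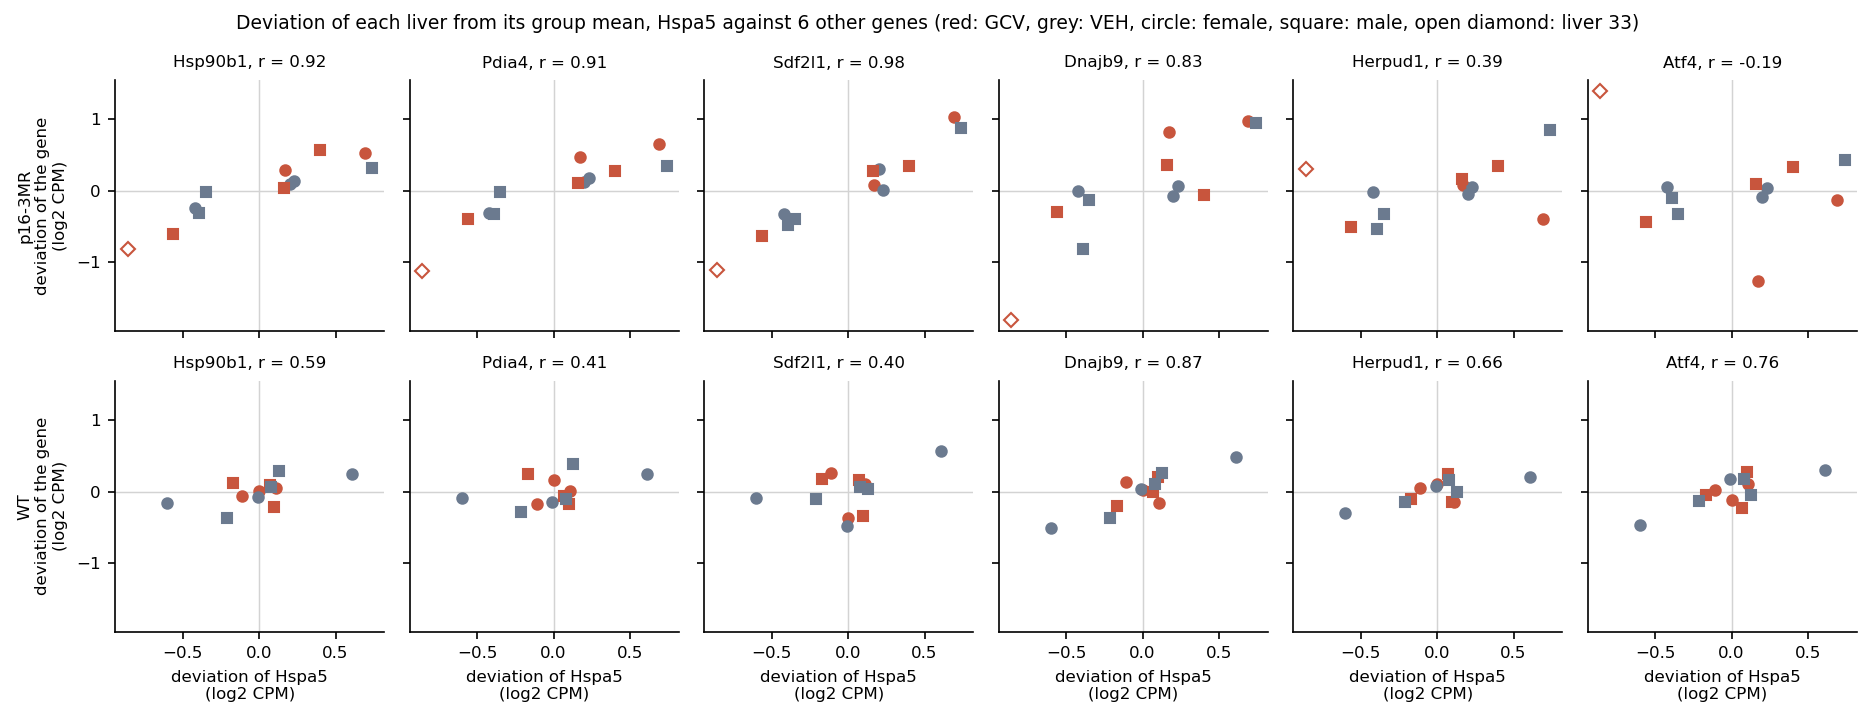
Deviation of each liver from its group mean in log2 CPM, Hspa5 on the horizontal axis and 6 other members on the vertical axis, for p16-3MR livers (top) and WT livers (bottom). Colours mark treatment, circles females, squares males and the open diamond liver 33, and each panel gives Pearson's r over 12 livers. In p16-3MR livers, Hsp90b1, Pdia4 and Sdf2l1 follow Hspa5 with r of 0.91 to 0.98, while for Atf4 liver 33 lies at the opposite corner.

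The genes with the pattern most like that of Hspa5, by Pearson's r of log2 CPM over the 12 livers among genes with a mean of at least 50 counts, were Manf (0.96), Dph3 (0.94), Spcs2 (0.93), Srp9 (0.92) and Ssr2 (0.90) among 8090 genes in p16-3MR livers. Manf is a secreted ER stress protein, Spcs2 a subunit of the signal peptidase, Srp9 a part of the signal recognition particle and Ssr2 a subunit of the translocon-associated complex. In WT livers they were Tmem258 (0.87), Atp8b1 (0.86), Creld2 (0.86), Mtfp1 (0.84) and Tmed9 (0.83) among 4101 genes. Creld2 is an ER stress-inducible protein, Tmem258 a subunit of the oligosaccharyltransferase and Tmed9 a cargo receptor of the early secretory pathway. The nearest member by rank was Hsp90b1 (rank 16) in p16-3MR and Atf4 (rank 74) in WT livers. In p16-3MR livers Pdia4 stood at rank 791 with an r of 0.60, below the 0.91 it had once group means were removed, and Herpud1, Ddit3 and Atf4 stood at ranks 2094, 2767 and 4317. These values are a description over livers that share group and library scale.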

How the data were processed

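Libraries were made with Smart-3SEQ, which reads the 3′ ends of transcripts. The authors trimmed the reads (Trim Galore 0.6.10), estimated abundance with Salmon 1.10.3, summed it to genes with tximport and excluded genes under 3 reads. The deposited values are estimated counts per gene, which the authors summed from Salmon's transcript abundances, as whole numbers not scaled for library size, with mm10 named as the build in the submitters' processing notes. The counts were taken from all 24 columns.

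Each table was fitted with edgeR 4.0.16 (R 4.3.3): TMM, 1 mean per group over 12 livers, the quasi-likelihood test on all genes, Benjamini-Hochberg adjustment over the table, and calls at an adjusted p under 0.05. Errors of log2 fold changes are SE, and 95% intervals are 1.96 SE on either side. This normal approximation is narrower than the quasi-likelihood test. In the WT interaction, Pdia4 had an interval from 0.01 to 0.88 but an unadjusted p of 0.0597 by edgeR. Log2 CPM used a prior count of 2. Alternatives were DESeq2 1.42.0, its size factors in edgeR, limma-voom 3.58.1 with quality weights, filterByExpr and removal of mitochondrial genes. Others were fits of the 6 livers of a sex, a replicate block in WT, a prior count of 0.5 and the omission of single livers. Values in VEH livers alone are a comparison of the VEH groups within the fit of 12 livers, not a separate fit of VEH livers. The fit without livers 24, 32 and 33 together was chosen after seeing the data. Symbols came from GENCODE vM21 (21698 of 21755 IDs), and 10496 of 12643 WT labels matched 1 symbol, 2067 several and 80 none. The edgeR fit was run on counts simulated from the means, library sizes and dispersions of the data. Such counts cannot show how the fit behaves with a library that stands apart, as liver 33 does.

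The rule for named genes took the members in every comparison, up to 4 called genes of each list (where none was called, at most the 1 with the lowest p), and the 5 genes most like Hspa5. Members, lists and markers were chosen with earlier results of these data known. The floor of 3 counts covers counting error only, since PCR copies are not independent molecules. The labels give 3 livers a group and no other record of the animals, so p-values measure the spread between these samples.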

Additional observations from a re-analysis of the deposited data

How the results depend on the processing

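In p16-3MR livers the count of called members was 0 in all 4 comparisons under every alternative run. Of the 91 pathway genes, DESeq2 called 1 between GCV and VEH females and 1 between the sexes. Between the sexes the fit without livers 24, 32 and 33 together also called 1, and leaving out 1 liver gave 0 to 1, with 1 without GCV female 31. In WT livers the call of Sdf2l1 between the sexes held under every alternative. Called members between the sexes numbered 1 in VEH-treated livers alone and 1 to 3 with 1 liver left out. The 9 pathway genes called there became 15 with limma-voom and 6 (without GCV female 4) to 15 (without VEH male 1) with 1 liver left out. Between GCV and VEH females, 2 members were called in the fit of 6 livers and 0 to 1 with 1 liver left out. Between GCV and VEH males, 0 to 1 pathway gene was called with 1 liver left out, with 1 without VEH male 1. The cause of these changes was not tested.

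WT livers of both treatments share replicate numbers. Same-numbered livers did not deviate together in females (correlations -0.0450, -0.0570 and 0.00178 over 8613 genes) and did so in 2 of 3 pairs of males (0.196, 0.283 and -0.0663), so the numbers were not taken as pairs. With the number as a replicate block, 5 of 8 members were called between GCV and VEH females (Hsp90b1, Pdia4 and Sdf2l1 higher, Dnajb9 and Herpud1 lower, adjusted p 0.00152 to 0.0297 by edgeR), with 1 pathway gene, 2 members in the interaction, and 3 members (Hsp90b1 added, -0.20, adjusted p 0.0248 by edgeR) and 16 pathway genes between the sexes. No female liver correlated best with its own number.

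No called value changed direction. Uncalled members did so under some alternative in every comparison, with 7 of 10 members between the sexes in p16-3MR livers and 1 to 4 members elsewhere, among them Hsp90b1, Sdf2l1 and Trib3 in p16-3MR females. The spread between livers, 55.8% in p16-3MR against 16.6% in WT livers, limits what 3 livers a group can show, as do the 2 to 31 counts of Trib3.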
